A study of Mus musculus with 8 samples.

Results

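Of the 47937 gene entries in the count tables, 9 long noncoding RNAs were followed by name through bone marrow-derived dendritic cells: Malat1, Neat1, Gas5, Mir155hg, Ptgs2os2, Snhg1, Snhg8, Snhg12 and Dleu2. BMDCs were grown from mouse bone marrow with GM-CSF (20 ng/ml) for 8 days and were then left unstimulated or stimulated for 24 h with LPS (20 ng/ml), the bacterial cell wall component sensed by TLR4. The labels give the genotypes WT and Grk 3xKO, called 3xGrk-/- here, and each of the 4 groups held 2 libraries. In the study, 3xGrk-/- BMDCs came from Grk2 fl/fl Grk3-/- Grk6 fl/fl mice, in which Cre acts on the floxed genes either from early blood precursors on (Vav-iCre) or from CD11c+ stages on. The paper introduces the name 3xGrk-/- for BMDCs of the Vav-iCre line and turns to the CD11c line after the RNA-seq, while the labels name no Cre line. The WT mice lacked Cre and were matched for age and sex; all mice were adult, over 8 weeks old. RNA was extracted in technical triplicates per the study's methods, whereas 2 libraries a group are analysed here. Nothing says that the 2 libraries of a group came from separate cultures. The p-values below therefore rest only on the spread between libraries of a group, which may be technical. That spread was estimated with information shared across genes, so a p-value need not reflect the spread of its own gene.

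Levels are given in CPM, read counts scaled to library size (TMM over all 8 libraries), and the libraries held 4713305 to 6933358 counted reads. The targeted Grk2 fell from 319 and 320 CPM in unstimulated WT to 151 and 146 in unstimulated 3xGrk-/- libraries, and from 676 and 735 to 198 and 183 CPM with LPS. Of 10 dendritic cell markers all were counted, and their summed level was 26112 to 26330 CPM in unstimulated WT, 13440 to 13716 in unstimulated 3xGrk-/-, 16595 to 18158 in LPS-stimulated WT and 14200 to 14477 CPM in LPS-stimulated 3xGrk-/- libraries. The 10 macrophage markers summed to 2138 to 2157, 9260 to 9267, 719 to 737 and 10163 to 10301 CPM in the same order, and the 7 eosinophil markers to 1139 to 1216, 60.8 to 68.4, 1077 to 1165 and 43.4 to 48.8 CPM. The 10 neutrophil markers summed to 719 to 765, 530 to 545, 340 to 396 and 188 to 205 CPM, and the 6 stromal markers to 1.72 to 3.22, 2.43 to 3.14, 4.79 to 8.33 and 15.2 to 21.0 CPM. Mast cell and basophil markers lay between 71.2 and 101 CPM in sum. Lymphocyte markers stayed at or under 6.71 CPM in sum, and the erythroid markers Hba-a1 and Alas2 were at 0 in every library. Within a list the genes did not all move as the sum, by the edgeR calls described below. In 3xGrk-/- cells 7 macrophage markers were higher and 2 lower without LPS, and 10 were higher with it. Of the dendritic cell markers 3 were higher and 7 lower without LPS, 2 and 8 with it. Of all genes 22.1% were higher and 22.7% lower without LPS, 24.7% and 24% with it. Of the macrophage sum Lyz2 alone gave 1303 and 1351, 7055 and 7079, 281 and 291, and 4550 and 4606 CPM, in the order of groups above. The dendritic cell, macrophage and neutrophil sums moved with the genotype and with LPS, the eosinophil sum with the genotype and, in 3xGrk-/- cells, with LPS, and the stromal sum with LPS and, after LPS, with the genotype. Their part in the differences reported below was not tested; in bulk RNA, fewer cells of a type and less RNA per cell cannot be told apart. Replicate 2 of LPS-stimulated 3xGrk-/- stood apart in its noncoding RNA. It held 149727 counts of the ribosomal RNA-rich gene Gm42418, against 17470 to 41199 in the other 7 libraries. It also held 12.3 CPM of Rmrp and 17.2 CPM of Rpph1, the RNAs of RNase MRP and RNase P. Elsewhere these RNAs had at most 1.12 and 2.52 CPM. The highest values outside that library, for Gm42418, Rmrp and Rpph1 alike, were those of replicate 2 of unstimulated WT. Replicates 1 and 2 held 20601 and 41199, 17470 and 28532, 26892 and 40843, and 26853 and 149727 counts of Gm42418, in the order of groups above. Among the 9 RNAs all 9 were higher in replicate 2 than in replicate 1 of unstimulated WT, and 8 in replicate 2 of unstimulated 3xGrk-/-, beside 51.2% and 49.9% of 5493 well counted genes. With LPS it was 3 in WT and 5 in 3xGrk-/- (54.0% and 48.0% of genes).

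Long noncoding RNAs act in several ways in myeloid cells. Neat1 and Malat1 are abundant nuclear RNAs that sit at paraspeckles and nuclear speckles. Mir155hg and Dleu2 are host transcripts from which microRNAs are cut. Gas5, Snhg1, Snhg8 and Snhg12 are spliced RNAs whose introns carry small nucleolar RNAs (snoRNAs), the guides of ribosomal RNA modification. Ptgs2os2 is the annotated name of lincRNA-Cox2, transcribed next to Ptgs2 and known as an RNA that Toll-like receptor signals induce.

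The 9 RNAs did not move as one group. By edgeR's quasi-likelihood test, with p-values adjusted over all genes (Benjamini-Hochberg, threshold 0.05), 7 of the 8 RNAs tested differed between the genotypes in unstimulated cells, Neat1 and Mir155hg higher and Malat1, Gas5, Snhg1, Snhg8 and Dleu2 lower in 3xGrk-/-. DESeq2 called 3 of these 8, and over all genes it called 1569 higher and 1517 lower. A fit with a coefficient of variation of 0.1 for every gene called 4 of the 8. Of all 12000 genes tested by edgeR in that comparison 44.7% passed the same threshold, 22.1% higher and 22.7% lower. Ptgs2os2 entered a fit only through the group where it was high and is left out of the next counts of calls. With LPS, 4 of the other 8 RNAs differed (48.6% of all 11830 genes), Neat1 higher and Gas5, Mir155hg and Snhg1 lower in 3xGrk-/- (background 24.7% higher and 24% lower). LPS changed 7 of 8 in WT cells (60.3% of all 12541 genes), of which only Mir155hg rose (29.5% of all genes rose and 30.8% fell). That count was 3 in DESeq2, which called 2972 genes higher and 2882 lower over all genes, and 4 with the fixed coefficient. It was also smaller without replicate 2 of unstimulated WT and without replicate 2 of LPS-stimulated WT. In 3xGrk-/- cells LPS changed 5 of 8 (55.4% of all genes): Neat1 and Mir155hg rose and Gas5, Snhg1 and Snhg12 fell (background 28% and 27.4%), and 3 of 8 were called with the fixed coefficient. The genotype effect with LPS differed from that without LPS for 3 of 8 (32.5% of all genes), Malat1 and Neat1 in the positive direction and Mir155hg in the negative (16.5% and 16%). Without replicate 2 of LPS-stimulated WT, Gas5 and Snhg1 were called as well. The stimulated and unstimulated libraries were deposited in separate tables and nothing says whether they were sequenced together, so LPS and a possible run difference cannot be told apart.

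**Figure D1:**
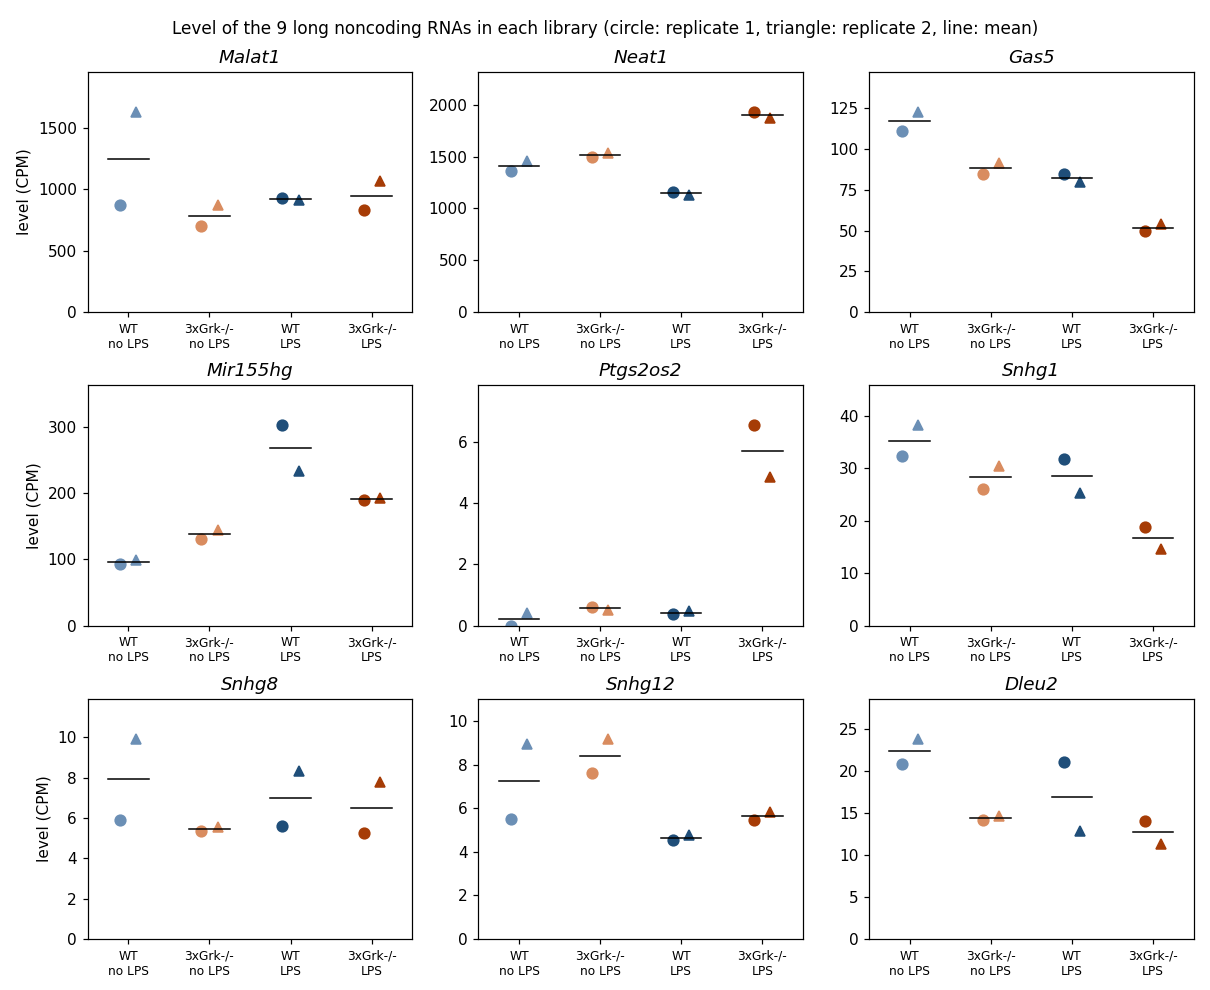
Level of each of the 9 RNAs (CPM, linear axis from 0) in the 4 groups; circles are replicate 1, triangles replicate 2 and lines the mean of the 2 libraries. Neat1 separated the genotypes with LPS (1131 and 1162 against 1871 and 1932 CPM), Mir155hg changed order between the stimulations, and Malat1 varied most between the libraries of unstimulated WT (872 and 1632 CPM).

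Neat1 (ENSMUSG00000092274; chromosome 19, 5824708 to 5845478 of GRCm38, minus strand; a lincRNA) is the scaffold RNA of paraspeckles. Its level was 1358 and 1457 CPM in unstimulated WT, 1496 and 1535 in unstimulated 3xGrk-/-, 1162 and 1131 CPM in LPS-stimulated WT and 1932 and 1871 CPM in LPS-stimulated 3xGrk-/- libraries. All 4 groups were separate from each other, and LPS moved the level in opposite directions in the genotypes. In WT cells it fell by 0.30 on the log2 scale (SE 0.0440, adjusted p = 1.34e-06, edgeR), whereas in 3xGrk-/- cells it rose by 0.33 (SE 0.0438, adjusted p = 3.00e-07). Scaled by library size alone, these were −0.51 and 0.11 (adjusted p = 5.95e-11 and 0.0391). The difference between these responses was 0.62 (SE 0.0621, adjusted p = 4.25e-09) and stayed between 0.59 and 0.69 in all 16 alternative settings, all called, whereas the response within each genotype was lost with a coefficient of variation of 0.1 set for every gene. With LPS, 3xGrk-/- cells thus held 1.66 times the WT level, a log2 difference of 0.73 (SE 0.0523, adjusted p = 1.88e-10). The summed macrophage markers ranked the 4 groups in the same order as Neat1, and their part in its differences was not tested. Without LPS the difference was small, 0.11 (SE 0.0310, adjusted p = 0.00222), and the call was lost in 6 of 13 alternatives. These were DESeq2 (adjusted p = 0.0522), a fit of all 8 libraries (0.0580), the fixed coefficient of variation (0.693), scaling by library size alone (0.641, with a difference of 0.02), and leaving out unstimulated WT replicate 1 (0.206, with 0.06) or unstimulated 3xGrk-/- replicate 2 (0.0526). The annotation holds 4 Neat1 transcripts of 711 to 20771 bases, and a count per gene cannot tell the short, polyadenylated form from the long one.

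Of the 9 listed proteins that build paraspeckles with Neat1, 1 was higher and 3 were lower in LPS-stimulated 3xGrk-/- cells, a share near the 48.6% of all genes, and DESeq2 called 0 higher and 2 lower. Rbm14 was higher (0.37, adjusted p = 0.0057, edgeR; not called in DESeq2), while Hnrnpk (−0.24), Nono (−0.23) and Matr3 (−0.23), RNA-binding proteins, were lower. Sfpq, an essential paraspeckle protein, lay at 199 and 208 CPM in WT and 213 and 222 CPM in 3xGrk-/- libraries with LPS (0.09, adjusted p = 0.24). In unstimulated cells 1 was higher and 3 were lower (44.7% of all genes differed), and 0 were called there in DESeq2. The neighbour of Neat1, Frmd8, 4224 bases away on the same strand, went the other way from Neat1 in WT cells, where LPS raised it by 0.54 (adjusted p = 1.05e-07). It was also lower in LPS-stimulated 3xGrk-/- than WT cells (−0.29, adjusted p = 0.0028).

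Malat1 (ENSMUSG00000092341; chromosome 19, 5795690 to 5802672, minus strand; a lincRNA) is an RNA of nuclear speckles whose mature end is made by RNase P and carries no poly(A) tail. Its 8 values were 872 and 1632 CPM in unstimulated WT, 698 and 871 in unstimulated 3xGrk-/-, 930 and 910 CPM in LPS-stimulated WT, and 830 and 1070 CPM in LPS-stimulated 3xGrk-/- libraries. One library, replicate 2 of unstimulated WT with 11676 counts, was high, and the other 7 lay between 698 and 1070 CPM. Among 5493 genes averaging 5 or more in log2 CPM, only Cebpb and Rnaset2a lay at least as far apart between the 2 unstimulated WT libraries, where the median gene differed by 0.0667 on the log2 scale and Malat1 by 0.90. edgeR called Malat1 lower in unstimulated 3xGrk-/- cells (−0.68, SE 0.0339, adjusted p = 9.44e-88), but DESeq2 gave it an SE of 0.464 and did not call it (adjusted p = 0.342). Without that WT library the difference was −0.16, and without the other it was −1.06. The LPS response in WT turned from −0.45 (adjusted p = 0.00967) to 0.08 without it, and the difference between the responses of the genotypes went from 0.73 (SE 0.207, adjusted p = 0.00739) to 0.22 (adjusted p = 0.270). With LPS the genotypes overlapped (0.05, SE 0.0799, adjusted p = 0.666). In 3xGrk-/- cells the LPS response was 0.28 (SE 0.147, adjusted p = 0.112), not called, but 9 of 17 alternatives called it. Its value was 0.06 to 0.45 over the 17, and its adjusted p 1.46e-08 to 0.742. In libraries selected for poly(A), replicate 2 also held more Malat1 than replicate 1 in unstimulated 3xGrk-/- (1.25 times) and LPS-stimulated 3xGrk-/- (1.29 times), the library rich in Gm42418, but not in LPS-stimulated WT (0.979 times). Of the other libraries, replicate 2 of unstimulated WT held the most counts of Gm42418 (41199), beside 40843 in replicate 2 of LPS-stimulated WT. The part of RNA selection in the level of Malat1 was not tested.

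**Figure D2:**
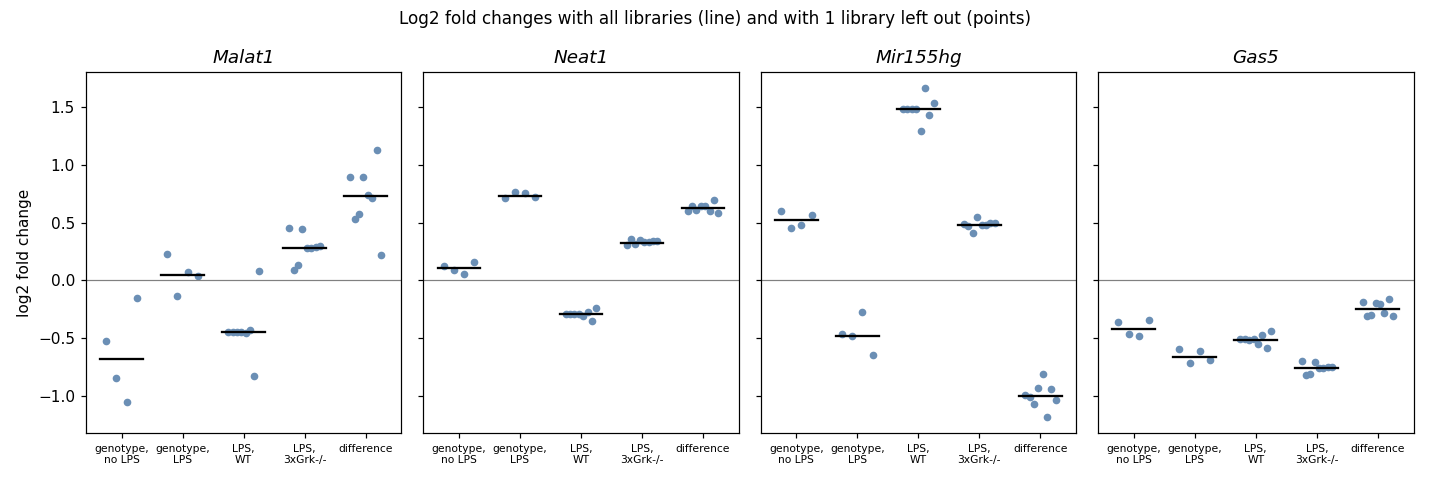
Log2 fold changes of Malat1, Neat1, Mir155hg and Gas5 in 4 comparisons and for the difference between the genotype effects (x axis), with all libraries as a line and with 1 library left out as points. Malat1 crossed 0 in 2 comparisons (down to −0.14 with LPS and up to 0.08 for LPS in WT), while Neat1, Mir155hg and Gas5 kept their direction in each.

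Mir155hg (ENSMUSG00000097418; chromosome 16, 84703167 to 84715245, plus strand; a lincRNA) is the precursor of miR-155, a microRNA that activated macrophages and dendritic cells make. The 5p arm is the main product of the hairpin, which lies whole within an exon of the host (both arms from RefSeq, GRCm38.p6, chr16:84714143-84714165 and chr16:84714182-84714202, plus strand). The arms are shown with the seed, bases 2 to 8, in capitals, since targets are read through it; no other of 1738 mature mouse microRNAs in the table has the 5p seed.
miR-155-5p: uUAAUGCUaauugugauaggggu
miR-155-3p: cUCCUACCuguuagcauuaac

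Mir155hg changed its order between the genotypes with LPS. Unstimulated, it had 92.1 and 98.1 CPM in WT and 130 and 144 CPM in 3xGrk-/- libraries, a log2 difference of 0.52 (SE 0.0607, adjusted p = 1.13e-16, edgeR). After LPS it had 302 and 233 CPM in WT and 190 and 192 CPM in 3xGrk-/-, a log2 difference of −0.48 (SE 0.0882, adjusted p = 0.000108). Without WT replicate 1 the latter was −0.28, still called. No group overlapped another, and the LPS-stimulated WT libraries were the highest. LPS raised it by 1.48 in WT (SE 0.0839, adjusted p = 5.63e-15), which is 2.81 times, and by 0.48 in 3xGrk-/- (SE 0.0824, adjusted p = 1.51e-05), 1.39 times. The responses differed by −1.004 (SE 0.118, adjusted p = 8.74e-08), and this call held in all 16 alternatives, at −1.18 to −0.81. These are counts of the host transcript. The gene entry of Mir155 itself was listed at 0, and mature miR-155 is not measured by such libraries.

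The seed of miR-155-5p pairs with the site AGCATTA in target RNAs. All 8 listed targets hold that site in the longest annotated 3′ untranslated region, as do 8.29% of 21022 genes. The list was made of known targets, so that its sites are a description. Sites of 3 that differed between the genotypes are shown, with the 10 bases on each side.
Socs1: gctgtgccgcAGCATTAagtgggggcg
Spi1: cgccggccatAGCATTAacccgtcgcc
Cebpb: ttccgtttcgAGCATTAaagtgaagac

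The targets did not share a direction. With LPS, where 3xGrk-/- cells held less Mir155hg, 4 of 8 were higher and 2 lower in 3xGrk-/- (DESeq2 4 and 1), beside 24.7% and 24% of all genes. Cebpb, a myeloid transcription factor, was at 18.8 and 22.2 CPM in WT and 204 and 146 CPM in 3xGrk-/- (3.08, adjusted p = 7.1e-14, edgeR). Spi1, which encodes the myeloid master regulator PU.1, was at 159 and 175 against 259 and 237 CPM (0.57, adjusted p = 6.6e-07). Tab2, a TAK1 adaptor, was lower (−0.44, adjusted p = 5.9e-06), and Inpp5d, which encodes the phosphatase SHIP1, had 138 and 151 against 151 and 149 CPM (0.05, adjusted p = 0.58). Without LPS, where 3xGrk-/- cells held more Mir155hg, Cebpb and Socs1 were higher and Bach1 was lower (not in DESeq2). Socs1, an inhibitor of cytokine signalling, was higher in 3xGrk-/- at both stimulations (0.93 and 0.42). The median over the 8 targets was 0.25 with and 0.00 without LPS, beside −0.01 and 0.00 over all genes.

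The gene next to Mir155hg, Mrpl39 (a protein of the mitochondrial ribosome, 2331 bases away on the opposite strand), moved opposite to it in WT cells. It had 18.9 and 22.8 CPM in unstimulated WT, 20.9 and 23.7 in unstimulated 3xGrk-/-, 12.3 and 14.5 CPM in LPS-stimulated WT and 33.0 and 28.2 CPM in LPS-stimulated 3xGrk-/- libraries. LPS lowered it in WT (−0.64, adjusted p = 0.000699) and raised it in 3xGrk-/- (0.45, adjusted p = 0.00389), and the responses differed by 1.10 (SE 0.201, adjusted p = 8.05e-05, edgeR).

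Dleu2 (ENSMUSG00000097589; chromosome 14, 61602839 to 61682373, minus strand; a processed transcript) is the other microRNA host, of miR-15a and miR-16, which restrain the cell cycle and BCL2. Their 5p arms, on the minus strand at chr14:61632075-61632096 and chr14:61631936-61631957 (RefSeq, GRCm38.p6), share the seed in capitals, which 11 of the 1738 mature entries hold.
miR-15a-5p: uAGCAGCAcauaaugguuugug
miR-16-5p: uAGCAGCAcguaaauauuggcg

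Dleu2 was lower in unstimulated 3xGrk-/- cells. It had 20.8 and 23.8 CPM in WT and 14.2 and 14.6 CPM in 3xGrk-/- libraries, a log2 difference of −0.65 (SE 0.144, adjusted p = 3.18e-05, edgeR) that was called in all 13 alternatives. After LPS it had 21.0 and 12.8 CPM in WT and 14.0 and 11.3 CPM in 3xGrk-/-. The genotypes overlapped and the difference was not called (−0.40, adjusted p = 0.116). The WT libraries lay far apart, and without WT replicate 2 the difference with LPS was −0.73 and without replicate 1 −0.02. It was called in 3 of 13 alternatives, the former (adjusted p = 0.00246), without 3xGrk-/- replicate 1 (0.0400) and with library size alone (0.0457). LPS lowered Dleu2 in WT by 0.43 (adjusted p = 0.0259), a call lost in DESeq2, without unstimulated WT replicate 2 (−0.32) and without LPS-stimulated WT replicate 2 (−0.09). Spryd7, 45953 bases away on the same strand, was higher in 3xGrk-/- without LPS (1.06, adjusted p = 4.47e-07) and with it (0.79, adjusted p = 0.00576). Trim13, whose gene lies within the span of Dleu2 on the other strand, had 5.53 and 6.43 against 9.41 and 5.55 CPM without LPS (0.33, adjusted p = 0.233).

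All 8 listed targets of miR-15 and miR-16 hold the seed site TGCTGCT, which 20.3% of the 21022 genes hold. In unstimulated 3xGrk-/- cells, where Dleu2 was lower, 6 of 8 were lower and 2 higher (22.7% and 22.1% of all genes). With LPS, where the difference in Dleu2 was called in 3 of 13 alternatives only, 6 were lower and 1 higher (24% and 24.7% of all genes). DESeq2 called 5 lower in each. Ccne1 (cyclin E1) was lower in both (−1.34 and −1.03), as was Bcl2, an inhibitor of cell death (−0.64 and −2.41). Bcl2 stood at 18.8 and 15.1 CPM in LPS-stimulated WT and 4.17 and 2.27 CPM in LPS-stimulated 3xGrk-/- libraries. Among the D cyclins, Ccnd1 and Ccnd2 changed order with LPS and Ccnd3 was lower in 3xGrk-/- both without and with it (−0.58 and −1.39). Ccnd1 was lower without LPS (−1.32) and higher with it (1.22), while Ccnd2 was higher without (0.75) and lower with it (−0.64), and both changes of order were called (2.54 and −1.39, adjusted p = 1.6e-10 and 1.6e-16, edgeR). The median of the 8 was −0.61 without and −0.83 with LPS.

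Ptgs2os2, or lincRNA-Cox2 (ENSMUSG00000097754; chromosome 1, 150159043 to 150164948, minus strand; a lincRNA), rose clear of the floor of 3 reads per library in LPS-stimulated 3xGrk-/- cells alone, with 36 and 30 counts. The other libraries had 0 and 3 counts (unstimulated WT), 4 and 3 (unstimulated 3xGrk-/-) and 2 and 3 (LPS-stimulated WT). It passed the filter only through the group where it was high, so that its edgeR calls are not used here. The 66 counts against 5 in the LPS-stimulated libraries made a ratio of 13.5 (exact 95% interval 5.52 to 43.1, counting error only), and 66 against 7 counts in 3xGrk-/- cells with and without LPS a ratio of 10.1 (4.62 to 26.0). In WT cells 5 counts with LPS against 3 without gave a ratio of 1.72 (0.335 to 11.1), so that no response was detectable at this depth. These intervals leave out the spread between libraries, which exceeded counting error. Over genes with 20 or more counts, chi-square per gene was 3.07 in LPS-stimulated WT and 9.02 in LPS-stimulated 3xGrk-/- (1.59 and 1.74 without LPS). The ratios describe these counts and are not a test.

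The protein-coding neighbour Ptgs2 encodes the prostaglandin synthase COX-2 and lies 50816 bases from Ptgs2os2 on the opposite strand. It had 0.191 and 0.559 CPM in unstimulated WT, 1.94 and 2.08 in unstimulated 3xGrk-/-, 69.0 and 42.8 CPM in LPS-stimulated WT and 451 and 448 CPM in LPS-stimulated 3xGrk-/- libraries. LPS therefore raised Ptgs2 in both genotypes, and the level with LPS was higher in 3xGrk-/- (3.02, SE 0.119, adjusted p = 8.26e-15, edgeR). The other neighbour, Pdc, was listed at 0 throughout.

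Of the 16 listed NF-kB response genes, which include Ptgs2, LPS raised 15 in WT (Tnf was not called) and 16 in 3xGrk-/-. Of all genes 29.5% and 28% rose. With library size alone 14 listed genes rose in each genotype, and 1 was called lower in WT. With LPS 9 were higher in 3xGrk-/- and 4 lower (24.7% and 24% of all genes). Nos2 (inducible nitric oxide synthase) had 25 and 28 CPM in WT and 540 and 520 CPM in 3xGrk-/- libraries, and Il12b, a subunit of IL-12, 255 and 260 against 58.8 and 59.1 CPM. Mir155hg thus lay with Il12b (−2.13, adjusted p = 8.3e-16) and Nfkb1 (−0.22, adjusted p = 0.002), lower in LPS-stimulated 3xGrk-/-, and Ptgs2os2 with Nos2 (4.32), Cxcl10 (2.12) and Ptgs2. One further long noncoding RNA, picked after its values were seen, had the same shape: U90926 had 0 to 0.896 CPM without LPS, 1.63 and 1.39 CPM in LPS-stimulated WT, and 115 and 115 CPM in LPS-stimulated 3xGrk-/- libraries. It too was well counted in that group alone, and no test is given for it.

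**Figure D3:**
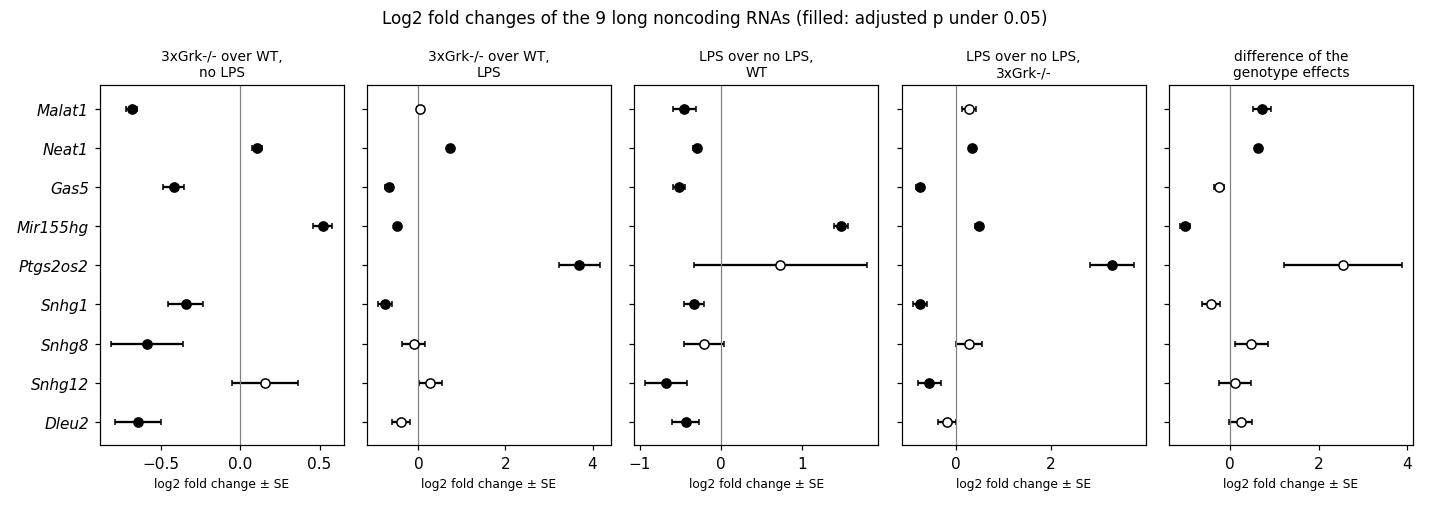
Log2 fold change ± SE of each of the 9 RNAs in 5 comparisons, each with its own x axis; filled points have an adjusted p under 0.05 in edgeR, and Ptgs2os2 was not tested without LPS and entered the other comparisons only through its high group. Mir155hg lay right of 0 without LPS (0.52) and left of it with LPS (−0.48), and Neat1 left of 0 for LPS in WT (−0.30) and right of it in 3xGrk-/- (0.33).

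Gas5 (ENSMUSG00000053332; chromosome 1, 161034422 to 161038539, plus strand; a processed transcript) is the best counted of the 4 snoRNA host genes, and it fell with both the genotype and LPS. It is known as a transcript of growth arrest, whose start with a run of pyrimidines (5′ TOP) ties its translation, and so its decay, to growth signals. Its level was 111 and 123 CPM in unstimulated WT, 85.0 and 91.2 in unstimulated 3xGrk-/-, 84.4 and 80.0 CPM in LPS-stimulated WT and 49.5 and 53.9 CPM in LPS-stimulated 3xGrk-/- libraries. The lowest values were those of LPS-stimulated 3xGrk-/- cells, less than any other library. The genotype difference was −0.42 without LPS (SE 0.0640, adjusted p = 3.66e-10, edgeR) and −0.67 with LPS (SE 0.0929, adjusted p = 4.08e-06), and LPS lowered Gas5 by 0.52 in WT (adjusted p = 8.26e-07) and by 0.76 in 3xGrk-/- (adjusted p = 6.88e-09). Each of these 4 calls held in every alternative, 13 or 17 of them. The genotype effects did not differ at the threshold (−0.25, adjusted p = 0.0948). The summed neutrophil markers fell through the 4 groups in the same order as Gas5, and their part in its differences was not tested.

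Snhg1 (ENSMUSG00000108414; chromosome 19, 8723475 to 8726443, plus strand) showed the same direction at a lower level. Its 8 values were 32.4 and 38.2, 26.0 and 30.5, 31.7 and 25.3, and 18.9 and 14.6 CPM in unstimulated WT, unstimulated 3xGrk-/-, LPS-stimulated WT and LPS-stimulated 3xGrk-/- libraries. It was lower in 3xGrk-/- with LPS (−0.77, SE 0.157, adjusted p = 0.000335) and fell with LPS in 3xGrk-/- (−0.76, adjusted p = 0.000102), in every alternative. The smaller differences without LPS (−0.34, adjusted p = 0.00587) and with LPS in WT (−0.33, adjusted p = 0.0284) were both lost in DESeq2 and without unstimulated WT replicate 2. Slc3a2, the amino acid transporter heavy chain that lies 106 bases away on the opposite strand, moved the other way in all 4 comparisons, from 191 and 178 CPM in unstimulated WT to 278 and 277 in unstimulated 3xGrk-/-, 231 and 249 in LPS-stimulated WT and 431 and 418 CPM in LPS-stimulated 3xGrk-/- libraries. Its differences between the genotypes were 0.60 and 0.82 without and with LPS (adjusted p = 8.95e-35 and 4.14e-10, edgeR).

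Snhg8 (ENSMUSG00000104960; chromosome 3, 123507552 to 123508404, minus strand) and Snhg12 (ENSMUSG00000086290; chromosome 4, 132308623 to 132311024, plus strand) were near 5 to 10 CPM, and few differences held. Snhg8 had 5.91 and 9.93 CPM in unstimulated WT and 5.38 and 5.55 in unstimulated 3xGrk-/- libraries, a difference of −0.59 (adjusted p = 0.0225) that dropped to −0.12 without the higher WT library and was lost in DESeq2. With LPS the libraries overlapped, 5.61 and 8.34 against 5.26 and 7.77 CPM, and the ratio of their counts was 0.930 (exact 95% interval 0.674 to 1.28, counting error only). Snhg12 had 5.53 and 8.95 against 7.61 and 9.19 CPM without LPS and 4.53 and 4.79 against 5.44 and 5.83 CPM with LPS, and neither difference was called (count ratios 1.11, 0.833 to 1.49, and 1.21, 0.834 to 1.76). LPS lowered Snhg12 by 0.68 in WT (adjusted p = 0.0227) and by 0.56 in 3xGrk-/- (adjusted p = 0.0465), but DESeq2 called neither and the former was −0.24 without unstimulated WT replicate 2.

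The starts of these host genes were read because 5′ TOP RNAs begin with a pyrimidine run. Shown are 40 bases around a start in RefSeq (GRCm38.p6), with the run over the start base in capitals: Gas5 at its second listed start, chr1:161035146-161035185, plus strand; Snhg1, chr19:8723467-8723506, plus strand; Snhg8, chr3:123508317-123508356, minus strand; and Snhg12, chr4:132308658-132308697, plus strand.
Gas5: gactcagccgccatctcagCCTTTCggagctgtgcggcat
Snhg1: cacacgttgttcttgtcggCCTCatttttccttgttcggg
Snhg8: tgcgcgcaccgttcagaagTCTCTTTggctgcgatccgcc
Snhg12: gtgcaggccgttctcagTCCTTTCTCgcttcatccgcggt

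The runs were 6, 4, 7 and 9 bases long, and 14.0% of 32851 listed promoters had a run of at least 4. The first listed start of Gas5 and the starts of Ptgs2os2 and Dleu2 had a run of 0 and that of Malat1 of 2. Neat1 had no entry, and the only start listed for Mir155hg lies 9856 bases inside the gene, so that the annotated 5′ ends of these RNAs were not searched. The second listed start of Gas5 lies 744 bases inside the annotated gene and the first 179, so neither is its annotated 5′ end. The starts of Snhg1, Snhg8 and Snhg12 lie 12, 68 and 55 bases inside their genes. Of the 16 listed 5′ TOP translation genes with an entry 4 had such a run. The windows from 250 bases before to 50 after these starts were also searched on both strands. The CRE motif TGACGTCA lay in that of the second Gas5 start (1.79% of all promoters), the AP-1 motif TGANTCA in none of the windows of Gas5, Snhg1, Snhg8, Snhg12, Malat1, Dleu2 and Ptgs2os2 (7.81%) and the kappaB motif, searched by its consensus, in that of Snhg8 alone among these (4.51%).

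Genes listed as known 5′ TOP genes, most of which encode ribosomal proteins or translation factors, were mostly lower in the comparisons in which Gas5 was lower. Of 24 listed, 22 were lower and 0 higher in unstimulated 3xGrk-/- cells, and 24 were lower with LPS. Of all genes 22.7% and 24% were lower. The medians were −0.33 and −0.59 beside 0.00 and −0.01 over all genes. LPS lowered 23 in WT (median −0.56) and 23 in 3xGrk-/- (median −0.82). Of all genes 30.8% and 27.4% fell, with medians of −0.01 and −0.01. Rpl3, a protein of the large ribosomal subunit, had 696 and 687 CPM in unstimulated WT, 493 and 504 in unstimulated 3xGrk-/-, 319 and 338 in LPS-stimulated WT and 146 and 137 CPM in LPS-stimulated 3xGrk-/- libraries. The genotype effect was stronger with LPS for 13 of the 24, Rpl3 among them (−0.74, adjusted p = 7.1e-09, edgeR), beside 16% of all genes, and weaker for Tpt1 (0.21, adjusted p = 0.019; not called in DESeq2).

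The core proteins of snoRNA particles fell with LPS in both genotypes. All 8 listed were lower after LPS in WT (median −1.14) and in 3xGrk-/- cells (median −1.21), where 30.8% and 27.4% of all genes fell and their medians were −0.01 and −0.01, with the pseudouridine synthase Dkc1 at −2.27 and −1.84 and the methyltransferase Fbl at −1.43 and −1.10. Between the genotypes 5 were lower without LPS (22.7% of all genes; Dkc1 −0.69, Gar1 −0.68) and 3 with LPS (24%; Gar1 −0.76, Nhp2 −0.53, Nop58 −0.39), although DESeq2 called 3 of 8 without and 0 of 8 with LPS. The snoRNA genes within the hosts, 10 in Gas5, 8 in Snhg1, 1 in Snhg8 and 5 in Snhg12, were all listed at 0 counts.

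Other snoRNA host genes did not all follow Gas5. Of 16 listed, 9 were tested, and 2 were lower without LPS and 3 with LPS in 3xGrk-/- cells, 0 higher (DESeq2 1 and 2), which is close to the 22.7% and 24% of all genes that were lower. Zfas1 was lower in 3xGrk-/- in both (−0.52 and −0.58, adjusted p = 4.2e-05 and 9.7e-05, edgeR) but rose with LPS in WT (0.78) and in 3xGrk-/- (0.72), where Gas5 and Snhg1 fell. Its levels were 35.3 and 33.7 CPM in unstimulated WT, 25.1 and 22.9 in unstimulated 3xGrk-/-, 57.6 and 60.8 in LPS-stimulated WT and 36.1 and 42.7 CPM in LPS-stimulated 3xGrk-/- libraries. Snhg15 was lower in 3xGrk-/- with LPS (−0.69, adjusted p = 5.6e-06), and Snhg17 fell with LPS in both genotypes (−0.95 and −0.89) with no called difference between them.

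**Figure D4:**
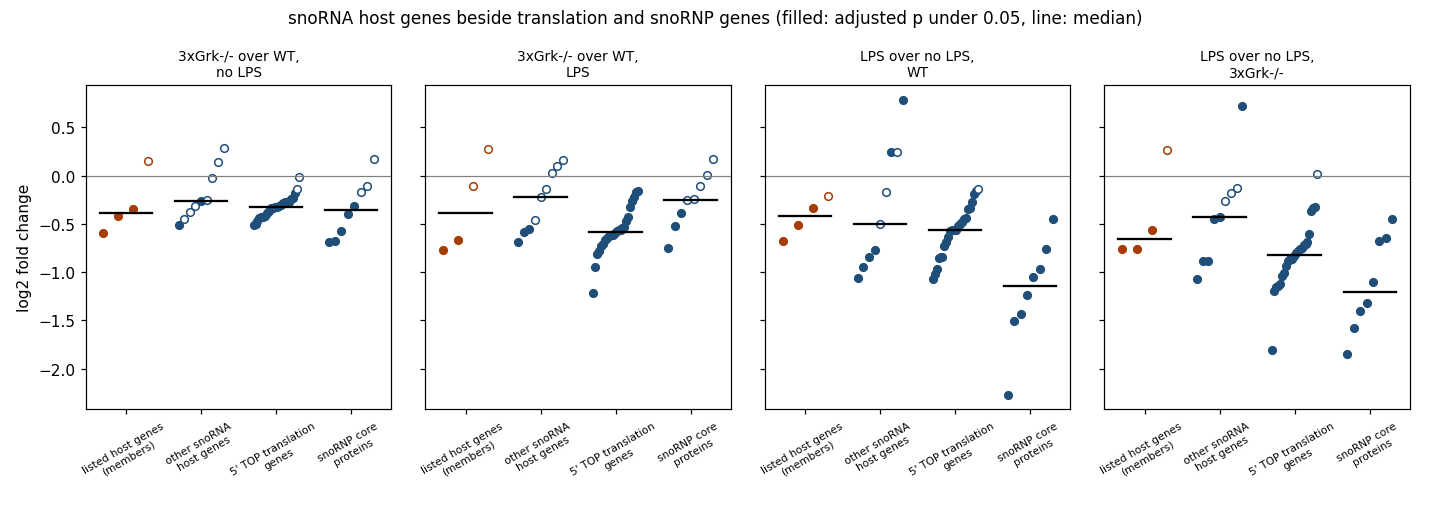
Log2 fold changes in 4 comparisons (panels) of the 4 snoRNA host genes among the members (orange), of other snoRNA host genes, of 5′ TOP translation genes and of core snoRNA particle proteins (blue); each point is a gene, filled where the adjusted p was under 0.05, and the line is the median. The medians of the 5′ TOP genes were −0.33, −0.59, −0.56 and −0.82, and those of the snoRNA particle proteins −0.35, −0.25, −1.14 and −1.21.

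Spliced snoRNA host RNAs are degraded by nonsense-mediated decay, and 10 factors of that pathway were listed. In unstimulated 3xGrk-/- cells 4 were higher and 2 lower (DESeq2 2 and 1), and with LPS 2 were higher and 3 lower (library size alone 0 and 3), shares near the 44.7% and 48.6% of all genes that differed. Upf2, a core factor, had the largest called difference with LPS: 176 and 157 against 95.1 and 98.4 CPM (−0.78, adjusted p = 3.3e-08, edgeR). It rose with LPS in WT (1.22) and in 3xGrk-/- (0.86), and Smg5 in WT (0.65).

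Compared per length, by RPKM (reads scaled to exon length and library size), the order of the levels changed between the groups at the top. The length was that of all annotated exons joined, 20771 bases for Neat1, whose shortest annotated transcript has 711 bases. It exceeded the longest transcript of Gas5 (3760 against 2556 bases) and of Dleu2 (11334 against 4098). Reads from a shorter form would give a higher value, so the order between RNAs holds for these lengths only. Malat1 led in unstimulated WT at 179 RPKM, ahead of Neat1 (67.7) and Mir155hg (66.4), which overlapped each other. In LPS-stimulated WT Mir155hg led at 187 RPKM, ahead of Malat1 (132) and Neat1 (55.2). In LPS-stimulated 3xGrk-/- Malat1 (136) and Mir155hg (133) overlapped, and Neat1 followed at 91.6 RPKM. Malat1 (112) and Mir155hg (95.8) came ahead of Neat1 (73.0) in unstimulated 3xGrk-/-, and the first of these pairs overlapped. Gas5 came next in each group, from 31.1 RPKM in unstimulated WT to 13.8 in LPS-stimulated 3xGrk-/-. Below it came Snhg1 and Snhg8, which overlapped in 3 of the 4 groups, and Dleu2 and Ptgs2os2 stayed under 4 RPKM.

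The genes most like these RNAs over the 8 libraries were taken among 2737 genes whose log2 CPM averaged 3 or more, with a range of at least 1 log2 unit over the group means. For Neat1 they were Milr1 (Pearson's r = 0.994 of log2 CPM), Lgals8 and Fnip2, for Gas5 Phactr2 (0.993), Insr and Ptp4a3, and for Mir155hg Camk2d (0.996), Cdyl and Arhgap6. Snhg1 was most like Clec2i (0.967) and Dleu2 like Gpr171 (0.929). Malat1 (Dennd2a, 0.666) and Snhg8 (Gm15564, 0.668) had no close partner. The points are the libraries of 4 groups, so these values mostly describe the group means.

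Of 25 other listed long noncoding RNAs, 12 were tested without LPS, with 3 higher and 4 lower in 3xGrk-/- (DESeq2 2 and 1). With LPS 13 were tested, with 4 higher and 2 lower (DESeq2 2 and 2). These numbers include Lockd (lower without LPS) and U90926 and Mirt2 (higher with LPS), with at most 10 reads per library in the lower group. Their calls rest on the group where they were high, so the numbers are not read as a result. Of all genes 44.7% and 48.6% differed. Mir22hg, host of miR-22, went from 27.3 and 32.2 CPM in unstimulated WT to 54.5 and 50.8 in unstimulated 3xGrk-/- (0.81, adjusted p = 3.2e-15, edgeR), while with LPS the libraries had 64.3 and 55.1 against 70.1 and 63.1 CPM (0.16, adjusted p = 0.21). As for Mir155hg, the difference between its genotype effects was called and negative (−0.65, adjusted p = 0.00074, edgeR). The effect on Mir22hg did not change sign with LPS, unlike that on Mir155hg. Mir142hg, host of the blood cell microRNA miR-142, was lower in 3xGrk-/- with LPS (−0.54, adjusted p = 0.00035), and Firre, a nuclear RNA, fell with LPS in both genotypes (−0.44 and −0.52).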

How the data were processed

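Poly(A)-selected, stranded RNA-seq libraries of BMDCs (8 libraries, 2 for each of 4 groups) were analysed. The authors aligned reads with STAR 2.7.3a in snakePipes 2.1.0 to GRCm38 and counted them per gene with featureCounts 2.0.0; the values deposited are raw counts, in 1 table for unstimulated and 1 for LPS-stimulated cells. The strand setting is not given in the sources used here. Groups were taken from the labels.

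From the counts, genotypes were compared within each table, and LPS responses and the difference of genotype effects in a fit of all 8 libraries, with edgeR 4.0.16 (R 4.3.3; TMM, filterByExpr, glmQLFTest, Benjamini-Hochberg over all genes tested, threshold 0.05). SE was the log2 fold change over the root of F. Alternatives were DESeq2 1.42.0, RLE, library size only, no or a stricter filter (10 counts in every library), a coefficient of variation of 0.1, a replicate block, no Gm42418, other sets of libraries and leaving out each library. The scripts were tested on simulated counts. Of 47937 gene IDs, 47224 were matched to a name; unmatched IDs held 0.0847% of counts. Gene positions and exon lengths came from GENCODE M21, sequences from RefSeq. No other column was present. Correlations used a pseudocount of 0.5 CPM; exact intervals (95%) and the floor of 3 counts cover counting error only. The smallest two-sided p of an exact permutation test is 0.333 here (2 against 2). Each p thus rests on a spread between libraries that was estimated with information shared across genes.

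Named genes were the 9 RNAs; of each context list at most 4 genes a comparison, the largest called changes averaging 3 or more in log2 CPM; the nearest protein-coding genes; and the 3 most alike genes. Values of other listed genes were chosen after they were seen. These were Sfpq, Inpp5d, Nfkb1, Tpt1, Smg5 in WT, Firre, U90926, Mirt2, Lockd, Rmrp, Rpph1 and snoRNA particle or target genes beyond 4. The members and lists were chosen with earlier results of these data known. A few genes that this rule names are not reported here.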

Additional observations from a re-analysis of the deposited data

Results flagged for a closer look

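The genotype effects of 3 RNAs differed between LPS-stimulated and unstimulated cells, by the test of that difference itself in edgeR's fit of all 8 libraries. For Neat1 it was 0.62 (adjusted p = 4.25e-09), with the LPS-stimulated 3xGrk-/- libraries above all others. For Mir155hg it was −1.004 (adjusted p = 8.74e-08), with opposite signs of the genotype effect. For Malat1 it was 0.73 (adjusted p = 0.00739), a value that rests on replicate 2 of unstimulated WT: without that library it was 0.22 (adjusted p = 0.270), and DESeq2 gave an adjusted p of 0.365.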

How the results depend on the processing

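The 8 libraries gave a common coefficient of variation of 0.0306 without and 0.0573 with LPS. With DESeq2, 3086 genes were called between unstimulated genotypes and 2643 for the difference of the genotype effects, and with a fixed coefficient of variation of 0.1 2905 and 2161, against 5369 and 4070. Of the 8 RNAs tested in unstimulated cells, 3 were then called by DESeq2 and 4 with the fixed coefficient, against 7. For LPS in WT these counts were 3 and 4, against 7. With 1 library left out, 3 to 7 of the RNAs were called for LPS in WT (3 without WT_unstim replicate 2, 4 without WT_LPS replicate 2, where 6417 of 12831 and 7022 of 12908 genes were called, against 7561 of 12541) and 2 to 5 for the difference of the genotype effects (5 without WT_LPS replicate 2, with 4079 genes called). Library size as the only scaling moved the median of all genes to −0.23 for LPS in WT and in 3xGrk-/-, and to −0.09 for both genotype comparisons, and the share of calls that were higher from 49.3% to 35.8% (genotype without LPS), from 49% to 31.1% (LPS in WT) and from 50.5% to 30.2% (LPS in 3xGrk-/-). Neat1 still rose with LPS in 3xGrk-/- (0.11, adjusted p = 0.0391).

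Over the values of single RNAs, 594 alternatives gave the same direction and call, 42 lost the call, 16 gained it and 14 reversed. With library size only, Malat1 with LPS turned to −0.0431. With 1 library left out, the values that reversed ranged for Malat1 from −0.14 to 0.23 (genotype with LPS) and −0.83 to 0.0777 (LPS in WT); for Dleu2 from −0.10 to 0.62 (difference of the effects); for Ptgs2os2 from −1.06 to 3.32 (difference) and −0.0158 to 4.36 (LPS in WT); for Snhg12 from −0.10 to 0.59 (genotype without LPS) and −0.30 to 0.39 (difference); and for Snhg8 from −0.41 to 0.24 (genotype with LPS), −0.0481 to 0.51 (LPS in 3xGrk-/-) and −0.54 to 0.26 (LPS in WT). Of these results only Malat1 for LPS in WT was a call, and apart from the left-out libraries the cause was not tested.

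The replicate numbers did not pair the libraries: deviations from the group means correlated at −0.0703 to 0.0723 over 9193 genes. With the replicate block 5292 genes were called in unstimulated and 5654 in LPS-stimulated cells, and Malat1 was called higher with LPS in 3xGrk-/- (0.27, adjusted p = 0.0417), as in 8 other alternatives of 17.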
